A study of Caenorhabditis elegans with 15 samples.

Results

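The fbxb and fbxc genes are F-box genes of the nematode Caenorhabditis elegans. Members were all genes whose symbol is fbxb or fbxc followed by a number and that have a probe set annotated to them alone. This gave 139 genes, 95 fbxb and 44 fbxc, of 17118 genes measured. A gene with more than 1 such probe set was read from the one with the highest mean over the 15 arrays. The RefSeq annotation (WBcel235) holds 169 genes with such symbols, of which 152 are protein coding, and 12 of the 139 members are pseudogenes there.

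F-box proteins are the substrate-binding subunits of SCF ubiquitin ligases. In these complexes a cullin scaffold holds a RING protein that recruits the ubiquitin-conjugating enzyme, a Skp1-related linker joins the cullin to the F-box, and the rest of the F-box protein binds the target that is then marked for degradation. Nematodes carry several large F-box families that expanded by local gene duplication, and the fbxa, fbxb and fbxc symbols name such families by sequence. The substrates of most of their members are not known, so single genes are described by family and position alone.

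Total RNA came from pools of wild-type N2 hermaphrodites, with 5 Affymetrix C. elegans Genome Arrays for each of 3 stages. All animals were synchronised by hatching into L1 arrest, then fed DA837 bacteria at 20 °C, and collected by hand at 22.5 °C in batches of 20. L4 animals, moving and feeding, were taken 42 h after feeding began. L4-lethargus animals, which had stopped moving and pumping as they do before each molt, were taken at 45 to 50 h and 30 to 40 min after pumping stopped, and Adult animals were young adults. No group carried a mutation or a treatment. The labels number the pools and do not say whether they were grown on separate plates or days, so the p-values below rest on pool-to-pool spread, which may be partly technical.

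Most of the family was dim on the array at every stage. A stage mean was taken as above background where it exceeded 5.56 log2, the 95th percentile of the values of 32 control probe sets for transcripts of other organisms. Of the 139 members, 26 (18.7%) had a mean above this bound in at least 1 stage, while 12566 of all 17118 genes (73.4%) did. The share was 10 of 95 (10.5%) for fbxb and 16 of 44 (36.4%) for fbxc. In the fbxa family 102 of 171 genes (59.6%) were above it, and in the BATH family, whose proteins link substrates to another cullin, 28 of 38 (73.7%) were. By stage, 15 members were above the bound in L4, 15 in lethargus and 23 in Adult, and 11 were above it in all 3 stages. Some of them lie close to it. With the mean of the highest control probe set, 5.80 log2, as the bound, fbxb-8, fbxb-38 and fbxb-97 would be above it in no stage. Their highest stage means were 5.58, 5.60 and 5.79 log2, all in Adult. The highest of the 3 stage means was in Adult for 21 of the 26 genes, in L4 for 4 and in lethargus for 1.

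**Figure D1:**
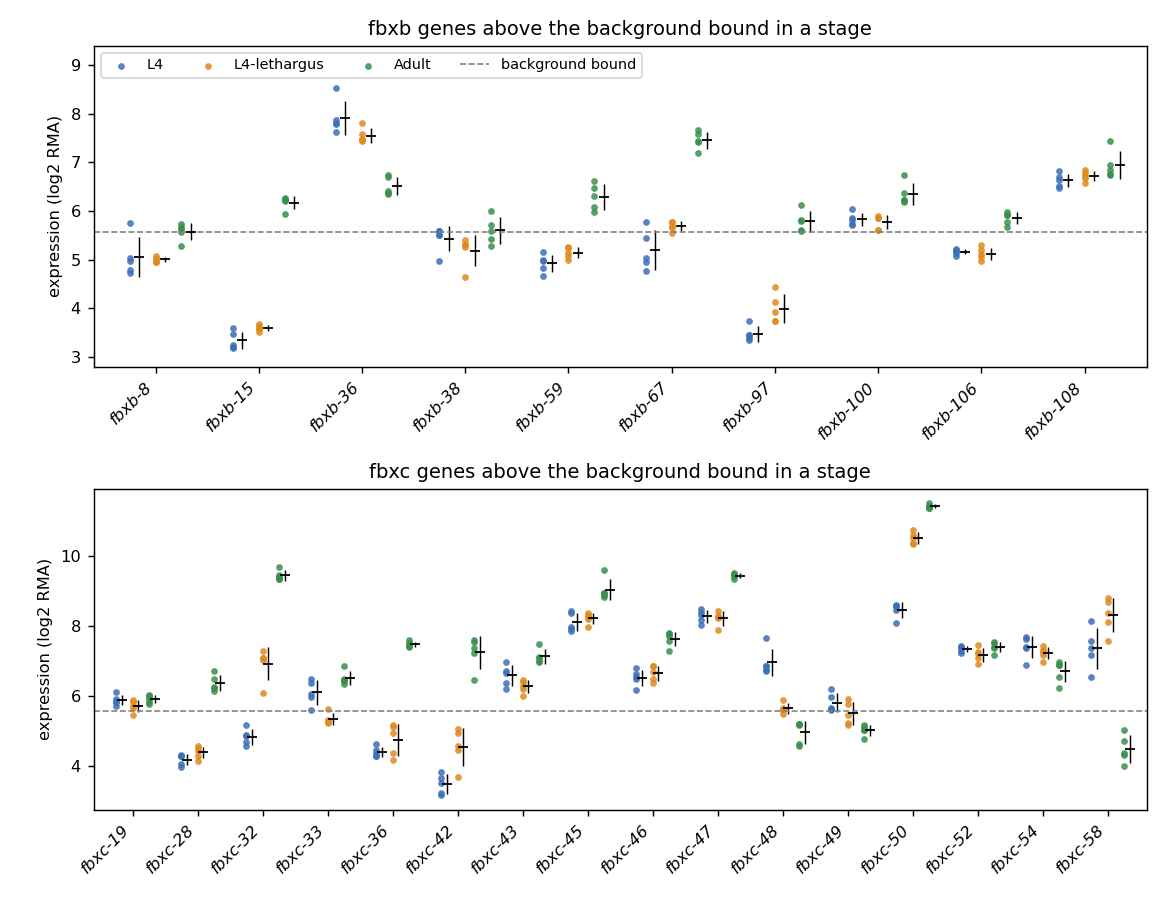
Expression (log2 RMA value) of the 26 fbxb and fbxc genes with a mean above the background bound in a stage. Each point is 1 array, crosses and bars are the mean and SD of 5 arrays, and the dashed line is the bound at 5.56. Most genes are highest in Adult, while fbxc-58, fbxc-48, fbxc-49, fbxc-54 and fbxb-36 are lowest there.

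Each comparison was fitted with limma over all 22548 probe sets and is called at an adjusted p of 0.05 or less. In lethargus against L4, 8 of the 139 members were higher (5.76%), 3 were lower (2.16%) and 128 did not pass. Among all genes 16.0% were called higher and 15.6% lower. The difference between these shares was not tested, and 113 of the members were dim. The median member difference, lethargus minus L4, was 0.03 log2, against a median of 7e-04 over all genes. Lethargus replicates 2, 4 and 5 each carried part of the count, since without any one of them 5 members were called higher. With quantile normalization repeated the split was 5 higher and 5 lower, with median-centring it was 6 higher and 4 lower, and with scaling to the hybridisation controls it was 10 higher and 2 lower. The shares of all genes called were not counted under these scalings.

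In lethargus against Adult, 7 members were higher (5.04%), 50 were lower (36.0%) and 82 did not pass. The background was 26.2% of genes higher and 31.0% lower. The median difference of the members, lethargus minus Adult, was -0.23 log2, beside -0.08 for all genes. In Adult against L4, a comparison that shares its arrays with both others, 56 members were higher (40.3%), 7 were lower (5.04%) and 76 did not pass. The background was 30.8% higher and 28.7% lower. The Adult minus L4 median was 0.24 log2 for the members and 0.08 for all genes. By family, 32 fbxb genes were higher and 1 lower in Adult than in L4, and 24 fbxc genes were higher and 6 lower. When probe sets whose probes match more than 1 transcript were left out, 8 members were higher and 40 lower in lethargus than in Adult. In Adult against L4 44 were then higher and 8 lower. Of the members 17 are read from such probe sets, and those with no other probe set drop out there. How many members remained and the shares of all genes called were not counted under this filter. These counts therefore cannot be read as shares or set against the background above.

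The floor of the array moved in the same direction. The median of the 32 control probe sets was 3.84 ± 0.12 log2 in L4, 3.83 ± 0.05 in lethargus and 4.02 ± 0.14 in Adult (SD, n = 5 each). Of these control probe sets 31 were higher in Adult than in L4, with a median difference of 0.19 log2, which is close to the members' own median. In lethargus minus Adult the median of these controls was -0.18 log2, and in lethargus minus L4 it was 0.02. When every array was scaled to these control probe sets, a choice made after seeing the data, the median of the members was 0.06 log2 in Adult minus L4 and -0.04 in lethargus minus Adult. The calls were then 10 higher and 30 lower in lethargus than in Adult, and 35 higher and 9 lower in Adult than in L4. Median-centring gave 3 higher and 124 lower in lethargus than in Adult, and 111 higher and 6 lower in Adult than in L4. The median of all genes was 0.10 log2 in lethargus minus Adult and -0.10 in Adult minus L4 with the control scaling. With median-centring it was -0.34 and 0.29. The shares of all genes called were not counted under either scaling, so these member counts have no background here. The part of the floor in these calls was not tested beyond the scaling to the control probe sets.

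**Figure D2:**
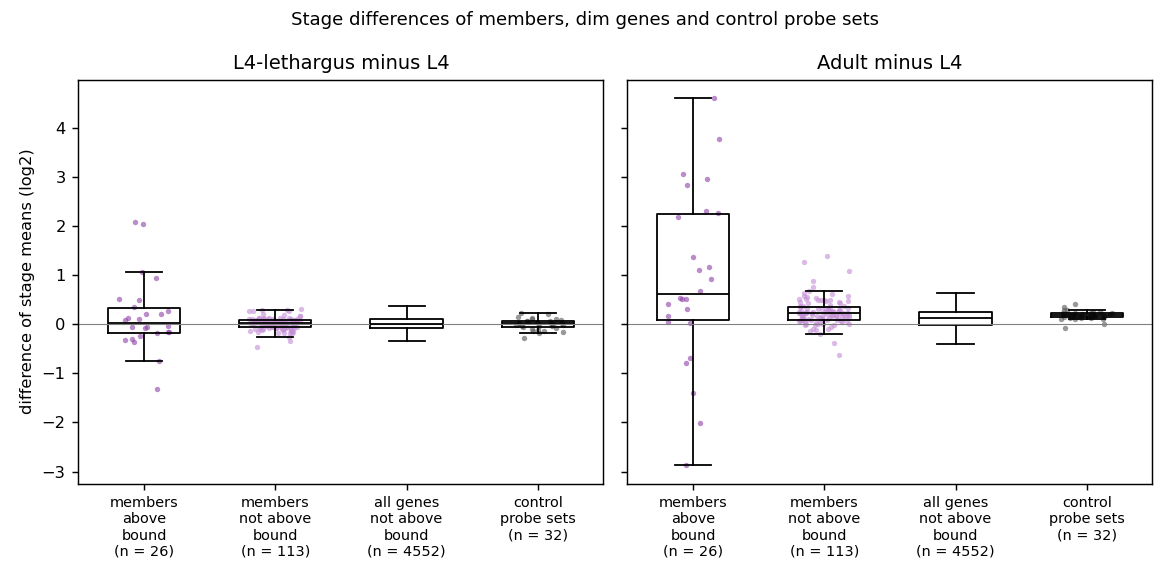
Differences of stage means (log2), lethargus minus L4 on the left and Adult minus L4 on the right. Boxes give the median and quartiles, whiskers reach at most 1.5 times the interquartile range, and points are single genes or probe sets (not drawn for the 4552 dim genes). The dim members, with a median of 0.23 log2 in Adult minus L4, and the 32 control probe sets, with 0.19, both lie mostly above 0 on the right, and the points farthest from 0 among the members belong to the 26 genes above the bound.

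The 113 members below the bound at every stage gave many of these calls. Of them 39 were called higher in Adult than in L4, with differences of the measured values of 0.26 to 1.39 log2 and a median of 0.47, and 2 were called lower, fbxc-20 and fbxc-23. Among all 4552 genes below the bound at every stage, 19.5% were higher and 7.36% lower in that comparison. In lethargus against Adult 2 of the 113 were higher (fbxb-77 and fbxc-20) and 33 lower, beside 6.52% and 16.9% of all dim genes. In lethargus against L4 2 were higher (fbxb-77 and fbxc-57) and 1 lower (fbxc-53), beside 4.42% and 4.39%. These dim genes are named after their values were seen. A value below the bound is only an upper limit on the level, so no fold is given for these genes. The 26 genes above the bound passed it through the stage in which they were brightest, so their counts are a description only. Among them 6 were higher and 2 lower in lethargus than in L4, where 20.1% and 19.7% of all genes above the bound were. In lethargus against Adult 5 were higher and 17 lower, beside 33.4% and 36.2%, and in Adult against L4 17 were higher and 5 lower, beside 34.9% and 36.4%.

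The largest differences of measured means between lethargus and L4 were the rises of fbxc-50 and fbxc-32, both of which were higher again in Adult, fbxc-50 on the brighter of its 2 probe sets. The values of fbxc-50 were 8.09, 8.59, 8.59, 8.59 and 8.45 log2 in the L4 arrays, 10.38, 10.60, 10.33, 10.74 and 10.52 in lethargus, and 11.39, 11.37, 11.43, 11.42 and 11.51 in Adult. The 3 stages did not overlap, and the Adult arrays lay closest together. It was 4.15-fold higher in lethargus than in L4 (difference 2.05 log2, SE 0.10, limma adjusted p = 2.72e-10). It was 1.88-fold lower in lethargus than in Adult (adjusted p = 2.23e-06) and 7.79-fold higher in Adult than in L4 (adjusted p = 1.65e-12). In a bulk extract a change in the number of cells of a type and a change in RNA per cell cannot be told apart.

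The reading of fbxc-50 depends on the probe set. The values above come from a probe set marked _s_at, whose probes match more than 1 transcript. The other probe set of fbxc-50 read 5.29, 5.66, 5.64, 5.93 and 5.83 log2 in L4, 5.90, 6.24, 7.22, 6.67 and 5.98 in lethargus, and 3.97, 4.30, 3.87, 4.23 and 3.86 in Adult. Its Adult arrays lay below all others, and its L4 and lethargus arrays overlapped in range. Both probe sets rose at lethargus, this one by 0.73 log2 (adjusted p = 0.0219). They disagreed on Adult, where this one gave a difference of 2.36 log2 for lethargus minus Adult (adjusted p = 1.29e-07) and of -1.62 log2 for Adult minus L4 (adjusted p = 6.9e-06). With the mean of both probe sets lethargus was higher than Adult by 0.72 log2 and Adult higher than L4 by 0.67 log2. The level of fbxc-50 in Adult is therefore uncertain.

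For fbxc-32 the arrays read 4.89, 4.57, 5.19, 4.70 and 4.86 log2 in L4, 6.10, 7.10, 7.04, 7.30 and 7.10 in lethargus, and 9.33, 9.70, 9.42, 9.35 and 9.45 in Adult. L4 was below the bound on every array, and lethargus replicate 1 was the lowest of its stage while still above all L4 arrays. The gene was at least 2.58-fold higher in lethargus than in L4, with L4 set to the bound (difference of the measured means 2.09 log2, adjusted p = 2.37e-07). It was 5.75-fold lower in lethargus than in Adult (adjusted p = 1.12e-08), and at least 14.8-fold higher in Adult than in L4 (4.61 log2, adjusted p = 5.89e-12). This gene, too, is read from a probe set shared with other transcripts. It is 1 of 17 members read from such probe sets, and the genes described below are not marked for this individually.

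A rise at lethargus below or near the bound was called for fbxc-42, fbxb-97 and fbxb-67, and all 3 were higher again in Adult. The values of fbxc-42 were 3.53, 3.83, 3.66, 3.17 and 3.23 log2 in L4, 3.68, 4.95, 4.45, 5.05 and 4.59 in lethargus, and 7.39, 6.46, 7.24, 7.60 and 7.55 in Adult. Lethargus replicate 1 lay among the L4 arrays, and the Adult arrays were apart from both larval stages. The lethargus minus L4 difference was 1.06 log2 (adjusted p = 0.00595), and Adult was at least 3.22-fold higher than L4 (3.77 log2, adjusted p = 2.77e-09). Lethargus was at least 3.22-fold lower than Adult (adjusted p = 2.07e-07).

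The values of fbxb-97 were 3.75, 3.44, 3.44, 3.38 and 3.34 log2 in L4, 3.73, 4.12, 4.44, 3.92 and 3.74 in lethargus, and 5.58, 5.62, 5.80, 6.12 and 5.82 in Adult. Only Adult rose above the bound, and L4 replicate 1 reached into the lethargus range. It was 0.52 log2 higher in lethargus than in L4 (adjusted p = 0.0141), at least 1.17-fold lower in lethargus than in Adult (adjusted p = 2.41e-08), and at least 1.17-fold higher in Adult than in L4 (2.32 log2, adjusted p = 7.78e-10).

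For fbxb-67 the values were 4.95, 5.77, 5.03, 5.45 and 4.76 log2 in L4, 5.68, 5.55, 5.78, 5.65 and 5.78 in lethargus, and 7.43, 7.41, 7.58, 7.20 and 7.66 in Adult. L4 replicate 2 was as high as the lethargus arrays. The rise at lethargus was 0.50 log2 (adjusted p = 0.0359). It did not pass with median-centring (adjusted p = 0.0781), repeated quantile normalization (adjusted p = 0.0665) or only the 2 stages compared in the fit (adjusted p = 0.0717). Nor did it pass when 1 of 7 arrays was left out, namely L4 replicates 1, 3 and 5 and lethargus replicates 1, 3, 4 and 5 (adjusted p between 0.057 and 0.107). Adult was at least 3.71-fold higher than L4 (2.26 log2, adjusted p = 3.85e-09), and lethargus was 3.40-fold lower than Adult (adjusted p = 1.11e-07), with no overlap in either case.

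A different order of stages was seen in fbxc-58, the 1 gene of the 26 that was highest in lethargus. It read 6.54, 7.18, 7.38, 8.15 and 7.56 log2 in L4, 7.59, 8.79, 8.11, 8.38 and 8.70 in lethargus, and 4.37, 4.02, 4.32, 4.73 and 5.03 in Adult. The larval stages overlapped, and all Adult arrays were below the bound. Lethargus was 1.93-fold higher than L4 (0.95 log2, SE 0.28, adjusted p = 0.0262), a call that was lost when L4 replicate 1 or 2 or lethargus replicate 2, 4 or 5 was left out, with adjusted p between 0.0553 and 0.079. Against Adult, lethargus was at least 6.74-fold higher (3.82 log2, adjusted p = 1.27e-08), and Adult was at least 3.48-fold lower than L4 (-2.87 log2, adjusted p = 2.52e-07).

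Lower in lethargus than in L4 were fbxc-48, fbxc-33 and 1 gene below the bound, fbxc-53. For fbxc-48 the values were 6.71, 7.66, 6.87, 6.73 and 6.87 log2 in L4, 5.90, 5.60, 5.50, 5.68 and 5.60 in lethargus, and 5.18, 5.21, 5.21, 4.58 and 4.64 in Adult. The stages did not overlap, and L4 replicate 2 was the highest array. Lethargus was 2.49-fold lower than L4 (-1.31 log2, SE 0.18, adjusted p = 3.37e-05). Lethargus was at least 1.06-fold higher than Adult (0.69 log2, adjusted p = 0.0057); with median-centring the difference was 0.44 log2 and did not pass (adjusted p = 0.0749). Adult was at least 2.65-fold lower than L4 (adjusted p = 8.33e-08).

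The gene fbxc-33 was lowest in lethargus. Its values were 6.50, 5.98, 5.62, 6.38 and 6.06 log2 in L4, 5.31, 5.31, 5.25, 5.64 and 5.26 in lethargus, and 6.44, 6.85, 6.46, 6.34 and 6.48 in Adult. Lethargus replicate 4 was above the bound and just above the lowest L4 array. It was at least 1.46-fold lower in lethargus than in L4 (-0.76 log2, adjusted p = 0.00132) and at least 1.93-fold lower in lethargus than in Adult (-1.16 log2, adjusted p = 7.27e-06). The Adult minus L4 difference of 0.41 log2 was near the threshold (adjusted p = 0.0473) and ranged from 0.23 log2 (adjusted p = 0.423) with scaling to the control probe sets to 0.75 log2 (adjusted p = 0.000259) with scaling to the hybridisation controls. The call was lost when any of L4 replicates 2, 3 and 5, lethargus replicates 1, 2, 3 and 5, and Adult replicates 1, 2, 3 and 5 was left out (adjusted p between 0.0551 and 0.136). It was also lost with array weights (adjusted p = 0.121) and with only the 2 stages compared in the fit (adjusted p = 0.0854).

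**Figure D3:**
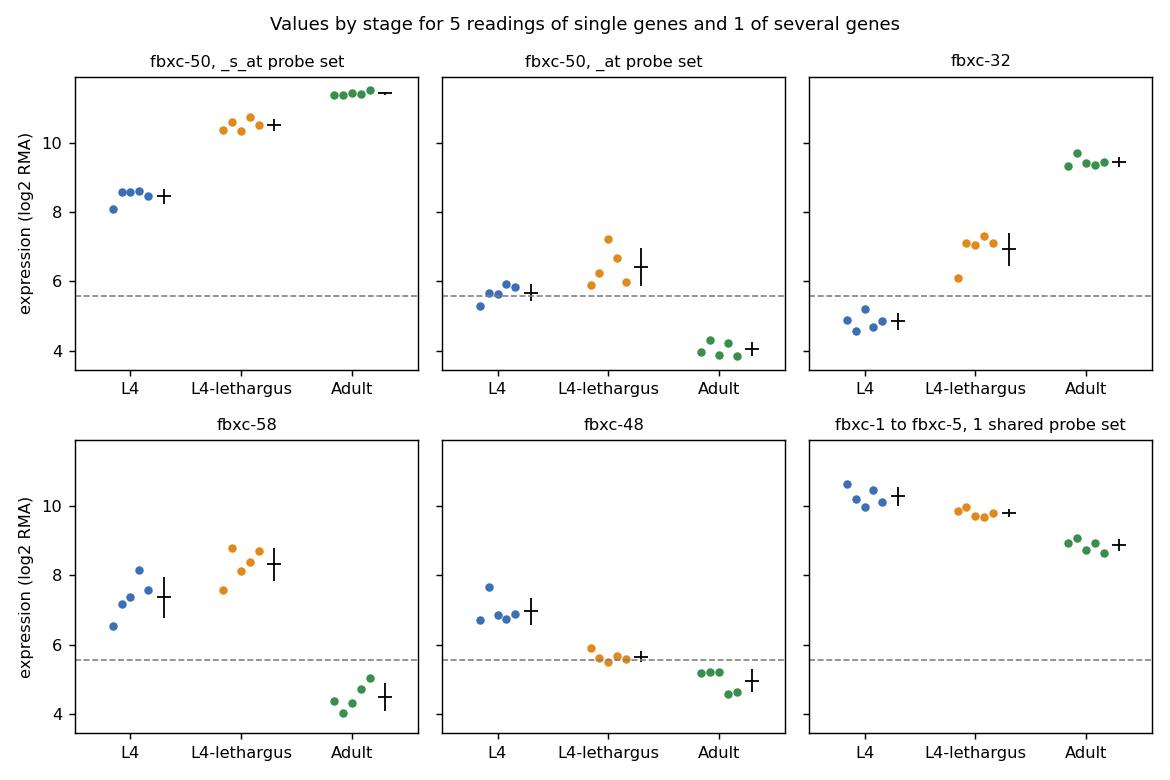
Expression (log2 RMA value) by stage for fbxc-50 on its 2 probe sets, fbxc-32, fbxc-58, fbxc-48 and the probe set shared by fbxc-1 to fbxc-5. Points are the arrays, replicates 1 to 5 from left to right, crosses and bars the mean and SD of 5 arrays, and the dashed line the bound at 5.56. The _s_at probe set of fbxc-50 is highest in Adult at 11.42, and its _at probe set is lowest there at 4.05.

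The most common order among the 26 genes, in 11 of them, was no call between the larval stages and a rise in Adult. In fbxc-36, fbxb-15 and fbxc-28 both larval means were below the bound, so that their folds are lower limits with no order among them or against other genes. For fbxc-36 the values were 4.63, 4.31, 4.28, 4.37 and 4.48 log2 in L4, 4.18, 4.95, 4.37, 5.18 and 5.12 in lethargus, and 7.50, 7.47, 7.43, 7.60 and 7.42 in Adult. Every larval array was below the bound and every Adult array above it. Lethargus was at least 3.79-fold lower than Adult (-2.72 log2, adjusted p = 1.2e-09), and Adult was at least 3.79-fold higher than L4 (3.07 log2, adjusted p = 1.89e-10). The lethargus minus L4 difference of 0.35 log2 did not pass (adjusted p = 0.231), and it did without lethargus replicate 1 (adjusted p = 0.0216).

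The values of fbxb-15 were 3.21, 3.46, 3.18, 3.24 and 3.60 log2 in L4, 3.67, 3.58, 3.60, 3.52 and 3.64 in lethargus, and 6.20, 6.23, 6.24, 6.26 and 5.93 in Adult. It went over the bound in Adult, on all 5 arrays. Lethargus was at least 1.53-fold lower than Adult (-2.57 log2, adjusted p = 3.92e-12), and Adult was at least 1.53-fold higher than L4 (2.83 log2, SE 0.09, adjusted p = 7.27e-13). The difference between lethargus and L4 was 0.26 log2 (adjusted p = 0.0718).

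For fbxc-28 the values were 4.28, 4.33, 4.30, 3.97 and 4.05 log2 in L4, 4.15, 4.57, 4.29, 4.51 and 4.44 in lethargus, and 6.23, 6.71, 6.50, 6.15 and 6.25 in Adult. The larval stages overlapped and Adult did not overlap either. Lethargus was at least 1.75-fold lower than Adult (-1.98 log2, adjusted p = 1.27e-09), and Adult was at least 1.75-fold higher than L4 (2.18 log2, adjusted p = 2.51e-10).

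Among the genes above the bound at all stages, fbxc-47 and fbxc-45 rose in Adult. For fbxc-47 the arrays read 8.04, 8.49, 8.40, 8.31 and 8.17 log2 in L4, 7.88, 8.43, 8.26, 8.28 and 8.23 in lethargus, and 9.42, 9.50, 9.48, 9.34 and 9.47 in Adult. Lethargus was 2.33-fold lower than Adult (-1.22 log2, SE 0.10, adjusted p = 8.25e-08), and Adult was 2.23-fold higher than L4 (1.16 log2, adjusted p = 1.03e-07). For fbxc-45 they read 7.93, 8.36, 8.43, 7.98 and 7.86 log2 in L4, 7.97, 8.20, 8.31, 8.38 and 8.25 in lethargus, and 8.84, 9.60, 8.95, 8.89 and 8.95 in Adult. The larval stages overlapped in both genes, and Adult lay above them, with Adult replicate 2 highest in fbxc-45. Lethargus was 1.77-fold lower than Adult for fbxc-45 (adjusted p = 0.000299), and Adult was 1.91-fold higher than L4 (adjusted p = 7.65e-05).

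The other genes with this order were fbxc-46, fbxc-43, fbxb-59, fbxb-106, fbxb-100 and fbxb-8. Their Adult minus L4 differences of measured means ranged from 0.52 log2 in fbxb-100 and fbxb-8 to 1.37 log2 in fbxb-59. In fbxb-59, fbxb-106 and fbxb-8 both larval means were below the bound. Their folds, Adult over L4, are lower limits: at least 1.655-fold, 1.219-fold and 1.01-fold. The pseudogene fbxc-46 was 2.16-fold higher in Adult than in L4 (adjusted p = 3.22e-06). In fbxc-43 the Adult minus L4 rise of 0.54 log2 (adjusted p = 0.00608) did not pass with scaling to the control probe sets (adjusted p = 0.0531). Adult replicate 2, which was highest in fbxc-43, fbxb-59, fbxb-100 and fbxb-8, also had the highest median of the control probe sets, at 4.21 log2. The Adult minus L4 rises of these 4 genes passed without that array as well.

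Lower in Adult with no call between the larval stages were fbxb-36, fbxc-49 and fbxc-54. The first of them, fbxb-36, is a pseudogene in RefSeq. Its values were 7.61, 7.80, 8.52, 7.78 and 7.87 log2 in L4, 7.80, 7.47, 7.58, 7.44 and 7.46 in lethargus, and 6.40, 6.75, 6.35, 6.37 and 6.70 in Adult. The larval stages overlapped, L4 replicate 3 was the highest array, and Adult was below both. Lethargus was 2.05-fold higher than Adult (1.04 log2, SE 0.15, adjusted p = 2.23e-05), and Adult was 2.65-fold lower than L4 (-1.41 log2, adjusted p = 5.75e-07).

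The values of fbxc-49 were 5.62, 5.97, 6.21, 5.60 and 5.67 log2 in L4, 5.78, 5.23, 5.47, 5.93 and 5.18 in lethargus, and 5.03, 5.12, 5.04, 5.17 and 4.78 in Adult. It was above the bound in L4 alone by its mean, and lethargus arrays lay on both sides of it. Adult was at least 1.19-fold lower than L4 (-0.79 log2, adjusted p = 0.000512). Lethargus was higher than Adult by 0.49 log2 (adjusted p = 0.0207). This did not pass with median-centring (adjusted p = 0.323) or with scaling to the hybridisation controls (adjusted p = 0.426). Nor did it pass when lethargus replicate 1 or 4 or Adult replicate 5 was left out (adjusted p between 0.0603 and 0.0639).

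For fbxc-54 the values were 7.38, 6.90, 7.40, 7.62 and 7.68 log2 in L4, 7.17, 7.43, 7.32, 6.97 and 7.27 in lethargus, and 6.97, 6.88, 6.24, 6.88 and 6.55 in Adult. Adult replicate 1 reached the range of the larval arrays. Adult was 1.61-fold lower than L4 (-0.69 log2, adjusted p = 0.00216), which did not pass with scaling to the hybridisation controls (adjusted p = 0.173). Lethargus was 1.44-fold higher than Adult (adjusted p = 0.0168). This call, too, was lost with median-centring (adjusted p = 0.193), repeated quantile normalization (adjusted p = 0.201) and scaling to the hybridisation controls (adjusted p = 0.43). It was also lost without Adult replicate 3 (adjusted p = 0.0533).

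No call was made in any comparison for fbxc-52, fbxc-19, fbxb-38 and fbxb-108 on the deposited scale. For fbxc-52 the values were 7.43, 7.38, 7.29, 7.40 and 7.23 log2 in L4, 6.92, 7.27, 7.10, 7.21 and 7.45 in lethargus, and 7.51, 7.17, 7.39, 7.54 and 7.37 in Adult. All stages overlapped, and the stage differences were between -0.21 and 0.05 log2. The closest to a call in the other 3 genes was fbxb-108, 0.32 log2 higher in Adult than in L4 (adjusted p = 0.0566). With median-centring all 4 were called lower in lethargus than in Adult, with differences of -0.67 log2 in fbxb-38 to -0.45 in fbxc-19 (adjusted p between 0.00169 and 0.00215) and -0.46 in fbxc-52. Repeated quantile normalization and scaling to the hybridisation controls called all 4 lower as well, and the hybridisation scaling also called all 4 higher in Adult than in L4. The median of all genes, lethargus minus Adult, was -0.34 log2 with median-centring and -0.36 with the hybridisation scaling, and -0.06 with repeated quantile normalization, beside -0.08 on the deposited scale.

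Some genes of the family had no probe set annotated to them alone. The genes fbxc-1 to fbxc-5 share 1 probe set, which therefore reads their sum in unknown parts and is no member. It read 10.64, 10.20, 9.98, 10.47 and 10.13 log2 in L4, 9.85, 9.98, 9.71, 9.67 and 9.81 in lethargus, and 8.94, 9.07, 8.73, 8.94 and 8.66 in Adult. L4 and lethargus touched at their ends and Adult lay below both, the reverse of the most common order among the members. The probe set was lower in lethargus than in L4 (-0.48 log2, adjusted p = 0.0104), higher in lethargus than in Adult (0.94 log2, adjusted p = 8.79e-06), and lower in Adult than in L4 (-1.41 log2, adjusted p = 5.81e-08).

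The members are unevenly placed in the genome. By the RefSeq annotation 89 of the 139 lie on chromosome II, 14 on V, 13 on IV, 11 on I, 8 on III and 4 on X. Members within 50 kb of the next form 16 groups of at least 2 genes, which hold 105 members. The longest group, on chromosome II, has 28 members, and 5 of them were above the bound, namely fbxc-33, fbxc-28, fbxc-36, fbxc-32 and fbxc-42. In that group 18 genes were higher in Adult than in L4 and 10 did not pass, with a median of 0.37 log2, and 4 were called in lethargus against L4. In Adult against L4, 30.8% of all genes and 19.5% of all dim genes were higher, and the median was 0.08 log2 over all genes and 0.19 over the control probe sets. In lethargus against L4, 16.0% of all genes were higher and 15.6% lower, and of all dim genes 4.42% and 4.39%. In it fbxc-36 and fbxc-32 are separated by 1 coding gene.

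In the next largest, of 16 members on chromosome II, 1 gene was above the bound, fbxb-15. In it 5 were called higher in Adult than in L4, a share near the 30.8% of all genes and above the 19.5% of all dim genes. On the same chromosome fbxb-36 and fbxc-49 lie in a group of 4 with fbxb-35 and fbxb-37. In Adult against L4 both were lower, fbxb-37, below the bound, was higher, and fbxb-35 did not pass. On chromosome I a group of 4 holds fbxb-69, fbxb-68, fbxb-67 and fbxb-8, of which 3 were higher in Adult than in L4. Neighbours of near-identical sequence can bind each other's probes, so neighbouring values may not be independent. Of the members 17 are read from probe sets marked as shared, and whether these match neighbouring members was not examined.

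**Figure D4:**
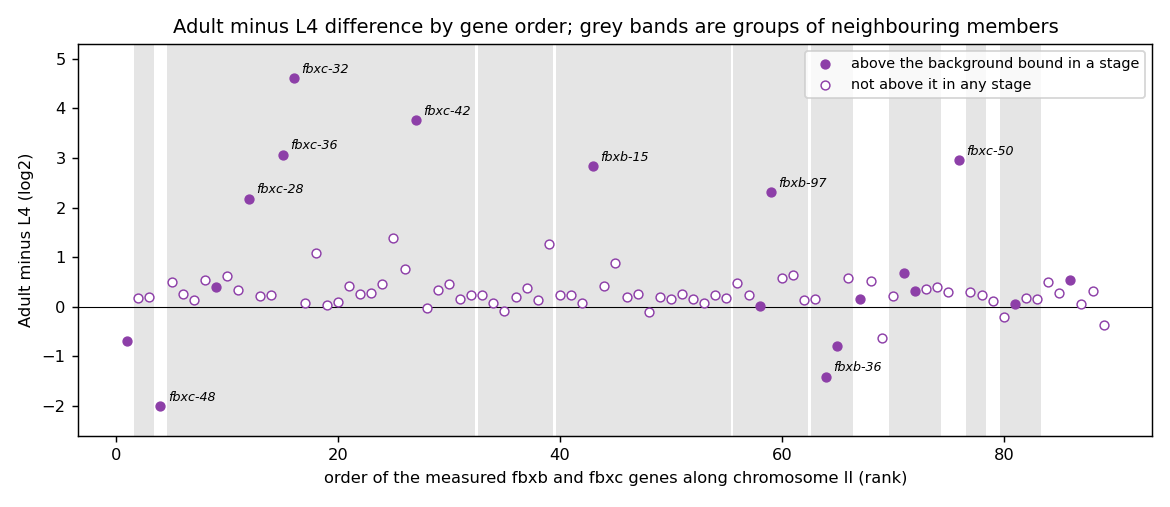
Adult minus L4 difference (log2) of the 89 members on chromosome II, in the order of the genes along the chromosome (rank, not distance). Filled points are genes above the background bound in a stage, open points genes below it at every stage, and grey bands are groups of neighbouring members. The longest band, of 28 genes, holds fbxc-32, fbxc-42, fbxc-36 and fbxc-28, which have differences of 4.61, 3.77, 3.07 and 2.18.

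Genes for the partners of F-box proteins in the SCF complex were measured on the same arrays. Of 25 listed genes for the cullins CUL-1 and CUL-6, RING proteins and Skp1-related linkers, 23 were measured. In lethargus against L4, 4 of them were higher and 2 lower, in lethargus against Adult 5 were higher and 15 lower, and in Adult against L4 13 were higher and 6 lower. The shares of all genes, which hold as the background for each list of other genes, were 16.0% higher and 15.6% lower in lethargus against L4, 26.2% and 31.0% in lethargus against Adult, and 30.8% and 28.7% in Adult against L4. In lethargus against L4 the 17.4% higher and 8.70% lower of the SCF list are close to or under those shares. The linker genes skr-7, skr-15 and skr-11 had the largest differences of measured means in Adult minus L4, with L4 below the bound, at 5.62 log2 (adjusted p = 6.74e-11), 4.89 log2 (adjusted p = 3.24e-11) and 3.67 log2 (adjusted p = 4.3e-12), and skr-11 was 1.84 log2 higher in lethargus than in L4 (adjusted p = 4.89e-08). Of the genes that attach the ubiquitin-like protein NED-8 to cullins or remove it, 11 of 12 were measured. In this list 1 gene was lower in lethargus than in L4 and 10 did not pass, 7 were lower in lethargus than in Adult and 4 did not pass, and 7 were higher in Adult than in L4 and 4 did not pass.

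Other substrate receptors were measured on the same arrays. All 8 listed F-box genes of known function were measured, and 4 were higher and 1 lower in lethargus than in L4, 1 higher and 6 lower in lethargus than in Adult, and 6 higher and 1 lower in Adult than in L4. They include fog-2, which acts in the sex determination of the hermaphrodite germ line and was 1.87 log2 higher in Adult than in L4 (adjusted p = 8.12e-09), and dre-1, which acts in developmental timing and was lower in lethargus than in L4 (-1.37 log2, adjusted p = 6.99e-07). Of 171 fbxa genes 24 were higher and 30 lower in lethargus than in L4, 50 higher and 51 lower in lethargus than in Adult, and 53 higher and 60 lower in Adult than in L4. The fbxa median in Adult minus L4 was 0.04 log2. Of 38 BATH genes 6 were higher and 3 lower in lethargus than in L4, 5 higher and 30 lower in lethargus than in Adult, and 29 higher and 5 lower in Adult than in L4, with an Adult minus L4 median of 0.89 log2. Whether these families differ from the fbxb and fbxc genes was not tested.

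A response to intracellular infection in C. elegans raises the genes of an SCF complex with CUL-6, SKR-3, SKR-4 and SKR-5. Of 21 genes listed for it, 4 of which are also in the SCF list, 17 were measured. In lethargus against L4 1 was higher and 3 lower, in lethargus against Adult 4 were higher and 1 lower, and in Adult against L4 2 were higher and 6 lower. The largest difference of measured means was in fbxa-158, an F-box gene of the fbxa family, which was 1.98 log2 higher in lethargus than in L4 (adjusted p = 0.000156) and 3.20 log2 higher in lethargus than in Adult, where it was below the bound (adjusted p = 3.53e-07).

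Markers of other tissues were read as well. All 12 oocyte and eggshell markers were higher in lethargus than in L4, all 12 were lower in lethargus than in Adult, and all 12 were higher in Adult than in L4. Their mean over the list lay between 8.33 and 9.63 log2 in the L4 arrays, between 10.57 and 11.19 in lethargus, and between 12.09 and 12.20 in Adult. That is the stage order of fbxc-32, fbxc-42, fbxb-97, fbxb-67 and the _s_at probe set of fbxc-50, which were called at each step. Lethargus replicate 1 was the lowest lethargus array for this list. Of those 5 genes it was the lowest lethargus array in fbxc-32, fbxc-42 and fbxb-97, while replicate 2 was lowest in fbxb-67 and replicate 3 in fbxc-50. Among the other genes given with every array's value, lethargus replicate 1 was the lowest in fbxc-36, fbxc-28, fbxc-58, fbxc-47, fbxc-45 and fbxc-52 too. The means of fbxc-36, fbxc-28 and fbxc-45 had the same stage order, with no call between L4 and lethargus. Those of fbxc-58, fbxc-47 and fbxc-52 did not have it. Without lethargus replicate 1 the lethargus minus L4 rise was 2.29 log2 in fbxc-32 (adjusted p = 6.3e-10) and 1.28 log2 in fbxc-42 (adjusted p = 0.000366). Of 8 germline markers 1 was higher in lethargus than in L4 and 7 did not pass, 7 were lower in lethargus than in Adult and 1 did not pass, and 6 were higher in Adult than in L4 and 2 did not pass. Their list mean was 10.31 to 10.82 log2 in L4, 10.29 to 10.73 in lethargus and 11.01 to 11.19 in Adult.

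Of 6 epidermis and molt markers 1 was higher and 5 lower in lethargus than in L4, 2 higher in lethargus than in Adult with 4 that did not pass, and 1 higher and 5 lower in Adult than in L4. Their list mean was 11.03 to 11.35 log2 in L4, 7.83 to 9.41 in lethargus and 7.56 to 7.90 in Adult. L4 was the highest stage, as in fbxc-48 and in the fbxc-1 to fbxc-5 probe set. Lethargus and Adult overlapped in the list mean, while in those readings they did not. Of 7 intestine markers measured 5 were higher in lethargus than in Adult and 2 did not pass, and 1 was higher and 6 lower in Adult than in L4. Of 6 neuron markers 4 were higher and 1 lower in lethargus than in Adult, and 1 was higher and 4 lower in Adult than in L4. Of 4 muscle markers 3 were lower in Adult than in L4 and 1 did not pass, and of 8 sperm markers measured 1 was higher and 4 lower. No marker list was absent at any stage, and the part of any tissue in the changes of the fbxb and fbxc genes was not tested.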

How the data were processed

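Total RNA of 15 pools (L4, L4-lethargus and Adult, 5 each) with an integrity number above 5 went through NuGEN Ovation amplification and onto 1-colour arrays, per the labels' protocols. The stated yields per pool were 22.3 ± 7.0 ng (L4), 18.6 ± 3.5 ng (L4-lethargus) and 75.3 ± 10.3 ng (Adult). The deposited values are log2 expression values that the authors made with RMA, which corrects background, equalises the arrays' distributions and combines the probes of a set, per the submitters' processing notes. The sources used here do not give its version. The method evens out the arrays, so an overall change of RNA cannot be read, and its floor makes differences of dim genes smaller. Array medians were 7.47 ± 0.05 log2 in L4, 7.51 ± 0.02 in lethargus and 7.26 ± 0.04 in Adult (SD, n = 5 each), and arrays of a stage correlated at 0.983 to 0.997 over all probe sets.

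Of 22625 probe sets 77 were controls. Of the 22548 tested, 20766 named 1 gene, 887 several and 895 none in GEO's platform annotation, which can be old, and 20701 matched RefSeq by gene identifier. limma 3.58.1 in R 4.3.3 (lmFit, eBayes) fitted a mean per stage over all 15 arrays. P-values were multiplied by 2, as the series design states, and adjusted by the Benjamini-Hochberg method over the 22548 probe sets. The permutation test that the design names was not run. A stage mean at or below the bound of 5.56 log2 was set to it and the fold written as at least N-fold, and no fold is given where neither stage exceeded it. Levels of different genes were not compared. The number of arrays limits the precision.

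Genes with every array's value are, per comparison, up to 8 rises and 8 falls that passed without overlap and whose brighter stage was above the bound, and the 6 members of highest mean. The genes fbxc-33, fbxc-46 and fbxb-108 and those of the last group of Adult rises were described after their values were seen. Of each list of other genes at most 3 with the largest differences are named, with fog-2 and dre-1 among them. Members and lists were chosen with earlier results of these data known. In simulated data for lethargus against L4 (22548 probe sets) the procedure recovered 62% of changes of 1.5-fold, 92% of 2-fold, 98% of 4-fold and 100% of 8-fold, with 5 false calls. The changes were added in full to probe sets drawn from all of them, with no floor. These rates therefore do not describe dim genes, and most members are dim. Alternatives were other scalings, filters, weights, probe set rules, a replicate block and arrays left out. No sequence was used here. Figures were drawn with matplotlib 3.10.9.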

Additional observations from a re-analysis of the deposited data

Results flagged for a closer look

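In 12 of 84 sets of 5 arrays (28 readings in 3 stages), 1 array lay farther from the other 4 than Dixon's critical value of 0.71 allows, where chance gives about 1 in 20. In L4, fbxb-36 read 8.52 log2 in replicate 3 with the others at 7.61 to 7.87, and fbxc-48 read 7.66 in replicate 2 with the others at 6.71 to 6.87. Also in L4, fbxc-50 read 8.09 in replicate 1 (others 8.45 to 8.59), fbxb-97 read 3.75 in replicate 1 (others 3.34 to 3.44), and fbxb-38 read 4.98 in replicate 2 (others 5.50 to 5.59). In lethargus, fbxc-32 read 6.10 in replicate 1 (others 7.04 to 7.30), fbxc-33 read 5.64 in replicate 4 (others 5.25 to 5.31), and fbxb-38 read 4.64 in replicate 2 (others 5.26 to 5.41). In Adult, replicate 2 stood above the others for fbxc-45 at 9.60 (others 8.84 to 8.95), for fbxc-43 at 7.49 (others 6.98 to 7.11) and for fbxc-33 at 6.85 (others 6.34 to 6.48), and replicate 5 stood below them for fbxb-15 at 5.93 (others 6.20 to 6.26).

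Signal above the bound also came from probe sets outside the member readings. The probe set shared by fbxc-1 to fbxc-5 averaged 10.28 log2 in L4, 9.80 in lethargus and 8.87 in Adult. The second probe set of fbxc-50 averaged 5.67 in L4 and 6.40 in lethargus, and was below the bound in Adult.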

How the results depend on the processing

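Of 52 called differences among the 26 genes above the bound, tried under 1518 combinations of difference and alternative, 1469 kept their direction and call, 46 in 8 differences lost the call and 3 reversed, all 3 in fbxc-50. Of the 26 differences not called, 35 of 762 combinations gained a call and 15 reversed. The cause of each change was not tested unless the alternative itself gives it. Counts of members below are given as higher and lower. The shares of all genes called were not counted under the alternatives, so these counts have no background.

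A minimum log2 difference of 1 left 3 and 1 in lethargus against L4, 2 and 12 in lethargus against Adult, and 14 and 3 in Adult against L4. Leaving out dim probe sets removed most members and left 3 and 0, 3 and 6, and 7 and 3 of 11 by limma (3 and 2 in lethargus against L4 at an unadjusted p under 0.05), with medians of -0.82 for lethargus minus Adult and 0.54 for Adult minus L4. Median-centring gave 6 and 4 (60.0% of calls higher, against 72.7%) in lethargus against L4, 3 and 124 in lethargus against Adult (median -0.48), and 111 higher in Adult against L4 (median 0.45), while it moved the median of all genes to -0.34 and 0.29. Quantile normalization again gave 5 and 5 (50.0% higher) in lethargus against L4. Cyclic loess gave 5 lower there and medians of -0.12 and 0.12 against and in Adult. Array weights gave 13 higher in lethargus against L4. Chosen after seeing the data, scaling to the hybridisation controls gave 83.3% higher in lethargus against L4, 4 and 123 in lethargus against Adult (median -0.50) and 125 and 4 in Adult against L4 (median 0.58), with all-gene medians at -0.36 and 0.42. Scaling to the control probe sets, also chosen later, gave 30 lower in lethargus against Adult (beside 10 higher, median -0.041) and 35 higher in Adult against L4 (median 0.064), with all-gene medians at 0.10 and -0.10.

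Leaving out 1 array at a time gave 5 to 9 higher and 2 to 4 lower in lethargus against L4, 5 to 7 and 44 to 58 in lethargus against Adult, and 50 to 64 and 7 in Adult against L4. Same-numbered arrays did not deviate together (correlations of deviations between -0.24 and 0.13). Whether same-numbered pools shared a day or handling cannot be told from this. With a replicate block the counts were 7 and 4, 6 and 54, and 53 and 7, and the rise of fbxb-67 at lethargus (adjusted p = 0.0819) and that of fbxc-33 in Adult (adjusted p = 0.0571) lost their calls.

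Reversed differences were all small except in fbxc-50. Lethargus minus L4 under hybridisation scaling was 0.0016 in fbxb-100, 0.028 in fbxb-106, 0.0172 in fbxb-8 and 0.0044 in fbxc-47. With array weights it was 0.11 in fbxb-8 and 0.0198 in fbxc-47. It was 0.12 in fbxb-8 without L4 replicate 2, and 0.0212 in fbxc-47 without lethargus replicate 1, alone or with Adult replicate 2. Adult minus L4 under control scaling was -0.0081 in fbxb-38, -0.15 in fbxc-19 and -0.13 in fbxc-52. It was -0.0088 in fbxb-38 with array weights, and in fbxc-19 it was -0.0171 without L4 replicate 3, -0.0106 without Adult replicate 3 and at most 0.0831 without any other array. For fbxc-50 lethargus minus Adult was 0.72 with the mean of its probe sets, and without shared-probe sets it was 2.36, with Adult minus L4 at -1.62. Signal near the floor limits what can be read of the 113 dim members.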
